A study of Homo sapiens with 2 samples.

Results

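Levels and per-cell co-detection of 10 genes of Notch signalling and of the biliary or progenitor state were measured in HepaRG cells. The genes were the ligand gene JAG1, the receptor genes NOTCH2 and NOTCH3, the target genes HES1 and HES4, the transcription factor genes SOX9 and SOX4, and SPP1, CD24 and MMP7. They were matched by symbol to the gene list of the count matrices, and all 10 of the 36601 genes listed there that carry these names were found. HepaRG is an established human hepatic line whose bipotent progenitors can form hepatocyte-like and biliary-like cells.

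The study examined stress responses to reference chemicals in this line, and only its vehicle controls were analysed here. Both libraries came from HepaRG cells bought as terminally differentiated, kept for 7 days on collagen and then given 0.1% DMSO for 24 h, with 10000 cells loaded per library. The cells were dissociated, fixed and profiled with a droplet 3′ kit that counts molecules by unique molecular identifiers (UMIs). The labels give the libraries replicate numbers 1 and 2 in their titles but the same biological replicate number. The p-values here reflect only how far the differences between cell groups varied between the 2 libraries, with the spread estimate moderated over all genes. That variation may be technical and need not describe separate cultures.

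Each cell was placed in a group by its own counts. ALB-high cells held at least 50 ALB UMIs per 10000, dividing cells held at least 10 UMIs per 10000 of TOP2A, MKI67 and CENPF together, and remaining cells met neither rule. In replicate 1 there were 257 ALB-high cells (5.77%, exact binomial 95% interval 5.10 to 6.50%), 1435 dividing cells (32.2%) and 2713 remaining cells (60.9%). In replicate 2 there were 357 (7.29%, 6.58 to 8.06%), 1606 (32.8%) and 2881 (58.9%). Another 49 and 50 cells met both rules and were kept apart. The groups are ranges of a count and not cell types: 65 and 98 cells lay within 20% of the ALB limit, and 325 and 377 within 20% of the dividing limit. Median depth per cell was 20256 and 12103 UMIs in ALB-high cells, 20834 and 12137 in dividing cells, and 16225 and 9602 in remaining cells. The median share of mitochondrial UMIs was 13.7% in ALB-high cells of both libraries, 7.90 and 8.05% in dividing cells, and 9.16 and 9.38% in remaining cells.

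The labelled hepatocyte type was checked on genes other than ALB, which the rule used. APOC3, an apolipoprotein gene of hepatocytes, was at 288 and 309 CPM (UMIs per 1000000 UMIs of a sum) in ALB-high cells, 6.18 and 7.39 CPM in remaining cells, and 5.61 and 5.44 CPM in dividing cells. CYP3A4, the main drug-metabolising cytochrome of adult liver, reached at most 1.90 CPM in any of these groups. Of the genes that define bile duct cells, KRT19 was abundant, at 757 and 767 CPM in remaining cells. EPCAM reached at most 0.289 CPM, CFTR at most 0.334 CPM and KRT7 at most 4.58 CPM. The 21 genes of the whole biliary list summed to 1424 and 1408 CPM in remaining cells, 1029 and 1025 CPM in dividing cells, and 1034 and 1024 CPM in ALB-high cells. KRT19 alone made up the 757 and 767 CPM of these sums in remaining cells, so their order need not be that of the other list genes. Of the 14 list genes tested, 8 were higher and 5 lower in ALB-high than in remaining cells (23.9% and 24.2% over all genes).

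Notch receptors are cut after they bind a Jagged or Delta ligand on a neighbouring cell. The freed intracellular part enters the nucleus, joins the DNA-binding protein RBPJ and a Mastermind co-activator, and switches on repressor genes of the HES and HEY families. In developing liver, Jagged1 signalling through NOTCH2 is needed for bile ducts to form, and SOX9 marks the first duct cells. SPP1, CD24 and MMP7 are expressed by duct cells or by the progenitor-like cells of injured liver.

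HES1 and HES4 are shown first by their promoters, because both are textbook targets of the pathway and their levels in these cells went different ways. Each line gives 60 bases of the promoter, 5′ to 3′ on the strand of the gene, from RefSeq on GRCh38.p14. Capitals mark GTGGGAA, the core of the site that RBPJ is known to bind, and TTCACAC, which reads GTGTGAA on the opposite strand.
HES1: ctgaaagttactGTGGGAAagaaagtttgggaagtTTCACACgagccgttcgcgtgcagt
HES4: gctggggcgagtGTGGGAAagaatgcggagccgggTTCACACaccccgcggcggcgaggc
The HES1 stretch lies at chr3:194136051-194136110 on the plus strand, 97 to 38 bases before the start that RefSeq gives. The HES4 stretch lies at chr1:1000127-1000186 on the minus strand, 89 to 30 bases before its RefSeq start. The GENCODE 29 model of HES4, used for the gene positions here, begins further upstream, and most of this stretch lies within it. In both, 16 bases separate the motifs. Promoter windows of 250 bases before to 50 after the start were available for 9 of the 10 genes, SOX9 having no entry. Over 35116 such windows, GTGGGAA on either strand was present in 2194 (6.25%) and GTGTGAA in 1053 (3.00%). The pair on opposite strands within 40 bases was present in 12 windows (0.0342%), 2 of which are those of HES1 and HES4. Among the other genes, 1 of the 3 CD24 windows held GTGGGAA. The motifs were chosen after these sequences had been read, and a match describes letters, not a bound site.

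**Figure D1:**
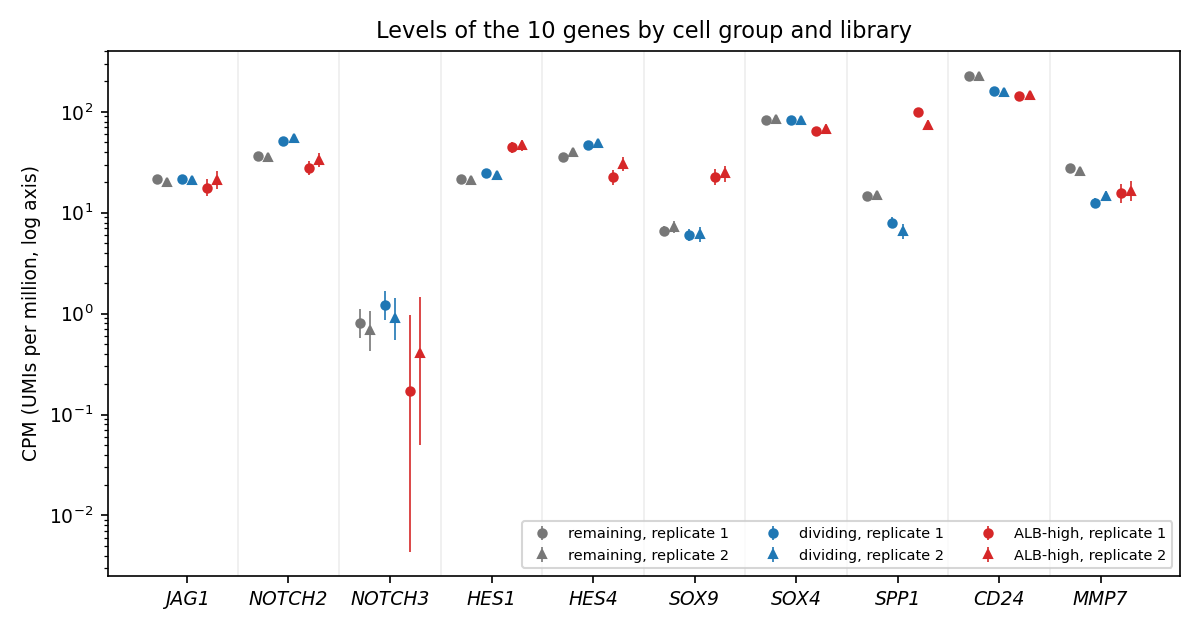
Level of each of the 10 genes in CPM (log axis) in remaining, dividing and ALB-high cells, with 1 point per library and exact Poisson 95% intervals that cover counting error only. SOX9, SPP1 and HES1 are highest in ALB-high cells of both libraries, NOTCH2 and HES4 in dividing cells, and CD24 and MMP7 in remaining cells.

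JAG1, the ligand, was not separated between the groups. It was at 17.8 and 21.3 CPM in ALB-high cells of replicates 1 and 2, 21.4 and 21.2 CPM in dividing cells, and 21.8 and 19.96 CPM in remaining cells. The groups overlapped, and no order of the 3 could be told from the spread between libraries. Neither comparison with remaining cells was called for JAG1: the log2 fold change was 0.03 ± 0.11 (SE) in ALB-high cells (edgeR adjusted p = 0.857) and 0.06 ± 0.06 in dividing cells (adjusted p = 0.462). With the dividing limit lowered to 5 UMIs per 10000, the second value was 0.16 and was called by edgeR (adjusted p = 0.0401). JAG1 lies on chromosome 20 from 10637684 to 10673999 (GRCh38, GENCODE 29) and overlaps the antisense gene AL050403.2. The strand setting of the counting is not given in the sources used here, so its reads and those of an antisense partner cannot be told apart; the same holds for SOX9 with SOX9-AS1 and for SOX4 with AL512380.2.

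NOTCH2, the receptor gene tied to duct formation, was highest in dividing cells. Its level there was 51.0 and 55.4 CPM, against 36.7 and 35.6 CPM in remaining cells and 27.6 and 33.4 CPM in ALB-high cells. Both dividing values stood above all 4 others. NOTCH2 rose in dividing cells by 0.59 ± 0.05 on the log2 scale (edgeR adjusted p = 4.0e-09) and did not pass the test in ALB-high cells (-0.12 ± 0.09, adjusted p = 0.318). Between ALB-high and dividing cells directly, its log2 fold change was -0.70 ± 0.09 (edgeR adjusted p = 7.1e-07). NOTCH2 lies on chromosome 1 from 119911553 to 120069626 and has near-identical partial copies, so its counts are uncertain to the extent that reads were split among them. NOTCH2NLC was at 4.30 to 7.53 CPM over the 6 sums, NOTCH2NLA at 1.38 to 2.98 CPM and NOTCH2NLB at no more than 0.0963 CPM.

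NOTCH3, the receptor gene best known from vascular smooth muscle and pericytes, was at the edge of detection. Only 1 and 2 UMIs of NOTCH3 were counted in ALB-high cells (0.172 and 0.409 CPM), 38 and 19 in dividing cells (1.22 and 0.906 CPM), and 38 and 21 in remaining cells (0.812 and 0.693 CPM). Its Poisson intervals in dividing and remaining cells overlapped in both libraries. NOTCH3 was called in neither comparison with remaining cells (edgeR adjusted p = 0.169 and 0.115). Against dividing cells it was lower in ALB-high cells (log2 fold change -1.82 ± 0.70, edgeR adjusted p = 0.0309), a call that rests on those 3 UMIs and was lost with DESeq2 (adjusted p = 0.156). Cells with a UMI of PDGFRB, a pericyte and fibroblast receptor gene, numbered 538 and 431. NOTCH3 was at 2.06 CPM in them and 0.761 CPM in other cells of replicate 1, and at 1.12 and 0.709 CPM in replicate 2, where the intervals (0.409 to 2.43 and 0.496 to 0.981 CPM) overlapped.

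The target genes HES1 and HES4, both encoding basic helix-loop-helix repressors, had different patterns. HES1 was at 44.5 and 46.5 CPM in ALB-high cells, 24.9 and 23.8 CPM in dividing cells, and 21.4 and 21.3 CPM in remaining cells. Both ALB-high values lay above all others, and the order ALB-high, dividing, remaining held in each library. HES1 rose in ALB-high cells by 1.23 ± 0.08 on the log2 scale (edgeR adjusted p = 4.8e-11) and in dividing cells by 0.23 ± 0.06 (adjusted p = 0.0023). The rise in dividing cells was lost with DESeq2 (adjusted p = 0.142) and with cells thinned to 4000 UMIs each (edgeR adjusted p = 0.111).

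HES4 was at 22.6 and 30.5 CPM in ALB-high cells, 47.4 and 49.2 CPM in dividing cells, and 35.8 and 39.8 CPM in remaining cells. The 3 groups did not overlap, with dividing cells highest and ALB-high cells lowest. HES4 fell in ALB-high cells by 0.38 on the log2 scale (SE 0.10, edgeR adjusted p = 0.0025) and rose in dividing cells by 0.40 ± 0.05 (adjusted p = 1.1e-06). In cells thinned to 4000 UMIs the HES4 difference of ALB-high cells was -0.13 and not called (edgeR adjusted p = 0.633). HES1 lies on chromosome 3 from 194136145 to 194138732 and HES4 on chromosome 1 from 998962 to 1000172.

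SOX9, the duct and progenitor transcription factor, was highest in the ALB-high cells. It was at 22.8 and 24.6 CPM there (132 and 120 UMIs), at 6.03 and 6.10 CPM in dividing cells, and at 6.56 and 7.19 CPM in remaining cells. The ALB-high level was 3.47-fold and 3.41-fold the remaining level in the 2 libraries. SOX9 rose in ALB-high cells by 1.93 ± 0.12 on the log2 scale (edgeR adjusted p = 2.3e-11), while dividing and remaining cells were not separated (-0.13 ± 0.11, adjusted p = 0.333). SOX9 lies on chromosome 17 from 72121020 to 72126420. TF, the gene of the plasma protein transferrin, is set beside it, since RNA free in the suspension can carry UMIs of hepatocyte genes into other droplets. In remaining cells TF was at 0.462 and 0.723% of its ALB-high level, while SOX9 was at 28.8 and 29.3% of its own. Free RNA itself was not measured, and its part in either level was not tested.

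SOX4, a factor of many progenitor states, varied little. It was at 64.5 and 68.3 CPM in ALB-high cells, 82.9 and 82.1 CPM in dividing cells, and 82.2 and 84.5 CPM in remaining cells. The ALB-high values lay below the rest, and dividing and remaining cells overlapped. SOX4 was lower in ALB-high cells by the edgeR test (-0.18 ± 0.06, adjusted p = 0.0145). That call was lost with DESeq2 (adjusted p = 0.125), in thinned cells (edgeR adjusted p = 0.429), with an ALB limit of 100 (adjusted p = 0.420) and with a dividing limit of 20 (adjusted p = 0.0592). SOX4 lies on chromosome 6 from 21592768 to 21598619.

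SPP1, which encodes the secreted phosphoprotein osteopontin, had the largest difference of the 10 genes. Its level was 100.2 and 74.3 CPM in ALB-high cells, 14.5 and 15.0 CPM in remaining cells, and 7.99 and 6.53 CPM in dividing cells. The groups did not overlap and had the same order in both libraries. SPP1 rose in ALB-high cells by 2.73 ± 0.09 on the log2 scale (edgeR adjusted p = 5.1e-16) and fell in dividing cells by 0.95 (SE 0.11, adjusted p = 2.0e-07). Against dividing cells the ALB-high difference was 3.69 ± 0.11 (edgeR adjusted p = 2.5e-17). Its UMIs sat in few cells: after thinning, the top 1% of remaining cells held 67.9 and 58.6% of all SPP1 UMIs of that group, with up to 21 and 10 in a single cell. The variance of SPP1 over remaining cells was 5.70 and 3.28 times its mean, against a median ratio of 1.04 over all genes compared in each library. SPP1 lies on chromosome 4 from 87975650 to 87983426.

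CD24, a surface glycoprotein gene of progenitor and duct cells, was highest in remaining cells. It was at 143.1 and 147.9 CPM in ALB-high cells, 160.2 and 158.0 CPM in dividing cells, and 224.6 and 228.4 CPM in remaining cells. The groups did not overlap in CPM. CD24 fell in ALB-high cells by 0.49 (SE 0.04, edgeR adjusted p = 2.8e-09) and in dividing cells by 0.47 (SE 0.03, adjusted p = 2.3e-11) on the log2 scale. ALB-high and dividing cells were not separated (log2 fold change -0.03 ± 0.04, edgeR adjusted p = 0.623). CD24 lies on chromosome 6 from 106969831 to 106975627.

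MMP7, the gene of the matrix metalloproteinase matrilysin, had the same highest group. It was at 27.6 and 26.0 CPM in remaining cells, 15.5 and 16.6 CPM in ALB-high cells, and 12.6 and 14.8 CPM in dividing cells. MMP7 fell in ALB-high cells by 0.61 (SE 0.12, edgeR adjusted p = 2.4e-04) and in dividing cells by 0.96 (SE 0.07, adjusted p = 4.8e-10) on the log2 scale. The first call was lost in thinned cells (-0.50, edgeR adjusted p = 0.0522). ALB-high cells were above dividing cells by 0.35 ± 0.14 (edgeR adjusted p = 0.0361), a call that was lost under 5 other settings and turned to -0.054 with an ALB limit of 100 (adjusted p = 0.836). MMP7 lies on chromosome 11 from 102520508 to 102530753.

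Over the 10 genes, all of which passed the filter on low counts, 3 rose and 4 fell in ALB-high against remaining cells, where 23.9% of all 19147 genes tested were called higher and 24.2% lower (48.1% in either direction). In dividing against remaining cells 3 rose and 3 fell, beside 24.8% higher and 23.9% lower over all genes (48.7% in either direction). In ALB-high against dividing cells 4 were higher and 4 lower, beside 27.3% and 29.2% (56.6% in either direction). The median log2 fold changes of the 10 were -0.15, 0.05 and -0.03 in these comparisons, and the medians over all genes were each -0.02. The 3 comparisons share their cell groups and are not independent. The 10 genes' shares of calls were near or above these backgrounds, and a call alone marks no gene out. TMM scaling placed ALB-high sums 0.15 and 0.14 lower against remaining sums on the log2 scale than total counts do, so fitted values exceed ratios of CPM by that amount.

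**Figure D2:**
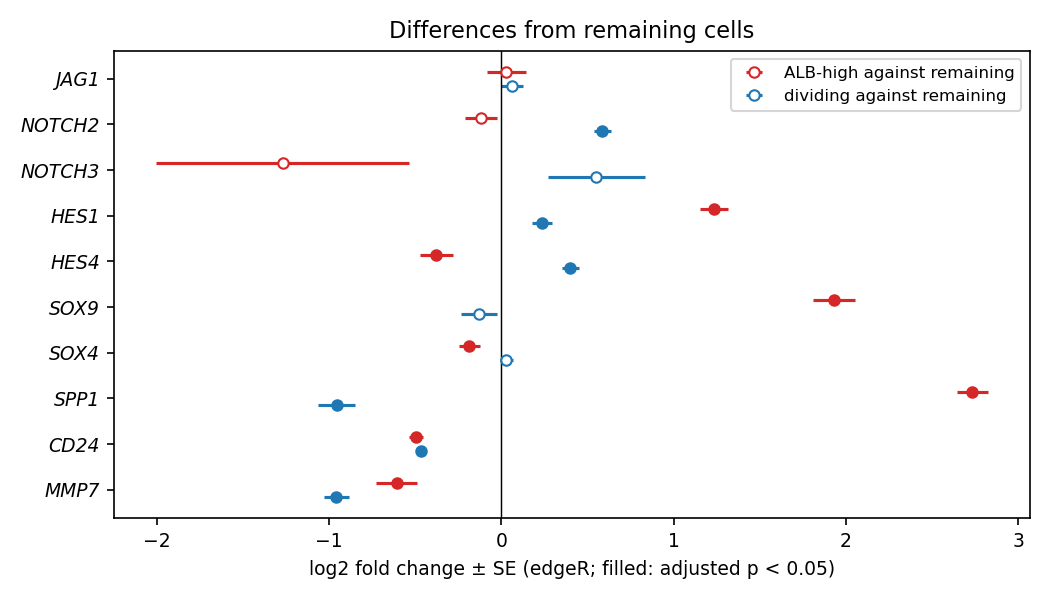
Fitted log2 fold changes with SE (edgeR) of ALB-high and of dividing cells against remaining cells, with filled points where the adjusted p was under 0.05. SPP1 at 2.73, SOX9 at 1.93 and HES1 at 1.23 are the filled points to the right in ALB-high cells, and SPP1 falls on the left in dividing cells.

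ALB-high cells had more mitochondrial UMIs. Keeping only cells with at most 15% left the log2 differences from remaining cells near as large for SOX9 (1.90) and HES1 (1.11). The SPP1 difference was larger than in the main setting, at 3.10. Mesenchymal genes were also lower in ALB-high cells, and 9 of the 10 tested fell, beside 24.2% of all genes. Their summed level was 59.3 and 70.2 CPM there, 267 and 273 CPM in remaining cells and 214 and 233 CPM in dividing cells, with COL1A2 at most 0.0990 CPM in these groups. The part of these cells in the lower CD24, MMP7 and HES4 levels of ALB-high cells was not tested.

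Across cells that were not dividing, SOX9 was higher in every ALB bin above the lowest. In bins of under 5, 5 to 20, 20 to 50, 50 to 200 and at least 200 ALB UMIs per 10000, SOX9 was at 5.55, 13.5, 13.1, 20.7 and 26.1 CPM in replicate 1. The same bins gave 5.57, 15.8, 15.9, 22.0 and 29.6 CPM in replicate 2. SOX9 was thus already above the lowest bin at 5 to 20, where the Poisson intervals (9.86 to 18.1 and 11.4 to 21.2 CPM) lay clear of those of the lowest bin (4.85 to 6.32 and 4.69 to 6.56 CPM). The intervals of the top 2 bins overlapped (16.2 to 25.9 and 19.8 to 33.8 CPM in replicate 1, 17.2 to 27.7 and 21.9 to 39.3 CPM in replicate 2). In thinned cells the bins were at 5.58, 17.6, 18.7, 28.1 and 31.0 CPM in replicate 1. Replicate 2 then gave 4.90, 19.8, 16.3, 20.8 and 22.2 CPM, with no steady rise above the lowest bin.

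HES1 and SPP1 took other shapes along the same bins. HES1 was at 20.3, 25.8, 32.6, 39.4 and 52.7 CPM in replicate 1 and at 20.6, 20.9, 30.3, 41.3 and 56.8 CPM in replicate 2, highest in the top bin. The HES1 intervals of the top 2 bins overlapped in both libraries (33.1 to 46.4 and 43.6 to 63.2 CPM in replicate 1). SPP1 was at 12.2, 18.9, 43.9, 108.9 and 86.0 CPM in replicate 1 and at 12.6, 20.2, 38.0, 77.4 and 67.9 CPM in replicate 2. Its highest value was in the bin of 50 to 200 in both libraries, but the intervals of the top 2 bins overlapped (98.4 to 120.3 and 74.3 to 99.1 CPM in replicate 1).

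CD24 was lower at high ALB. It was at 223.1 and 224.3 CPM in the lowest bin, 260.2 and 254.7 CPM at 5 to 20, 149.7 and 150.6 CPM at 50 to 200, and 132.4 and 142.7 CPM in the top bin. KRT19, the duct keratin gene, was at 814 and 834 CPM in the lowest bin and 182 and 228 CPM in the top bin. HES4 was at 36.8 and 41.1 CPM in the lowest bin and 20.7 and 22.2 CPM in the top bin. The bins hold 2402, 177, 134, 152 and 105 cells in replicate 1 and 2500, 226, 155, 233 and 124 in replicate 2. Of the 10 genes, 3 (SOX9, SPP1 and HES1) were higher in the top than in the lowest bin in both libraries, and the count was the same in thinned cells.

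**Figure D3:**
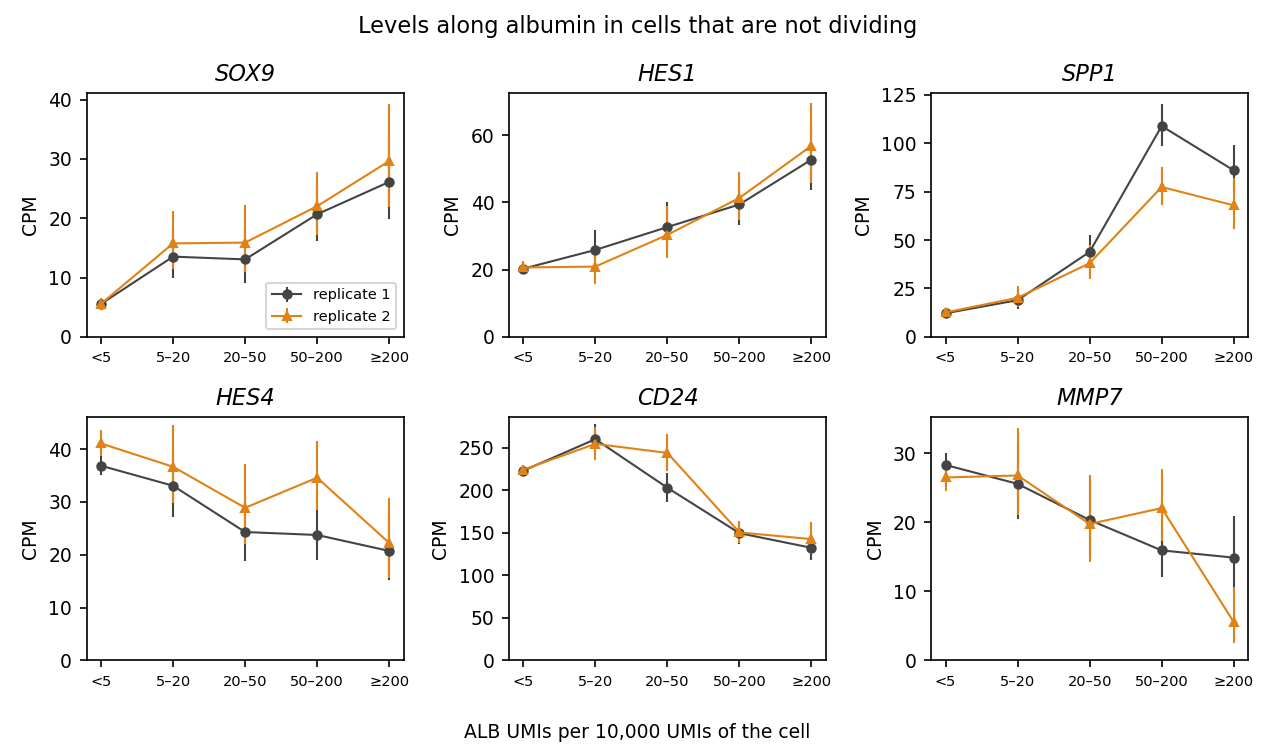
Level in CPM across bins of ALB UMIs per 10000 in cells that are not dividing, with 1 line per library and exact Poisson 95% intervals. The highest SOX9 and HES1 values are in the top bin and the highest SPP1 values at 50 to 200. The intervals of these bins overlap for each of these genes. CD24 goes from 223.1 and 224.3 CPM in the lowest bin to 132.4 and 142.7 CPM in the top bin.

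The 49 and 50 cells that met both rules were not placed between the groups in every gene. SOX9 was at 22.3 and 25.6 CPM and SPP1 at 121.8 and 137.4 CPM in them, at or above the ALB-high level. CD24, at 66.9 and 83.8 CPM, was below all 6 values of the other groups. HES4 was at 35.8 and 44.3 CPM, with intervals of 26.1 to 47.9 and 31.3 to 60.7 CPM. A droplet with an ALB-high and a dividing cell would also meet both rules, and the share of such droplets was not tested, since the doublet caller marked 3 and 0 cells.

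Binning the cells that were not ALB-high by the dividing score, a split chosen after the data had been seen, separated HES4 from NOTCH2. In bins of under 1, 1 to 5, 5 to 10, 10 to 20 and at least 20 UMIs per 10000, HES4 was at 25.8, 38.7, 54.1, 50.6 and 45.3 CPM in replicate 1. In replicate 2 it was at 28.0, 43.6, 57.7, 56.2 and 44.1 CPM. HES4 was highest at 5 to 10 and lower again in the top bin, but the intervals of the bins at 5 to 10 (49.4 to 59.0 and 52.1 to 63.9 CPM) and 10 to 20 (46.7 to 54.8 and 51.4 to 61.3 CPM) overlapped in both libraries.

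NOTCH2 was at 36.7, 35.3, 39.1, 38.8 and 59.0 CPM in replicate 1 and at 35.0, 36.3, 35.7, 44.5 and 63.3 CPM in replicate 2. It was highest in the top bin, whose interval (55.6 to 62.6 and 58.9 to 68.0 CPM) was clear of every other. MMP7 ran the other way, from 39.7 and 34.6 CPM in the lowest bin to 11.8 CPM in the middle bin of both libraries. The bins hold 1348, 890, 475, 629 and 806 cells in replicate 1 and 1408, 951, 522, 715 and 891 in replicate 2.

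**Figure D4:**
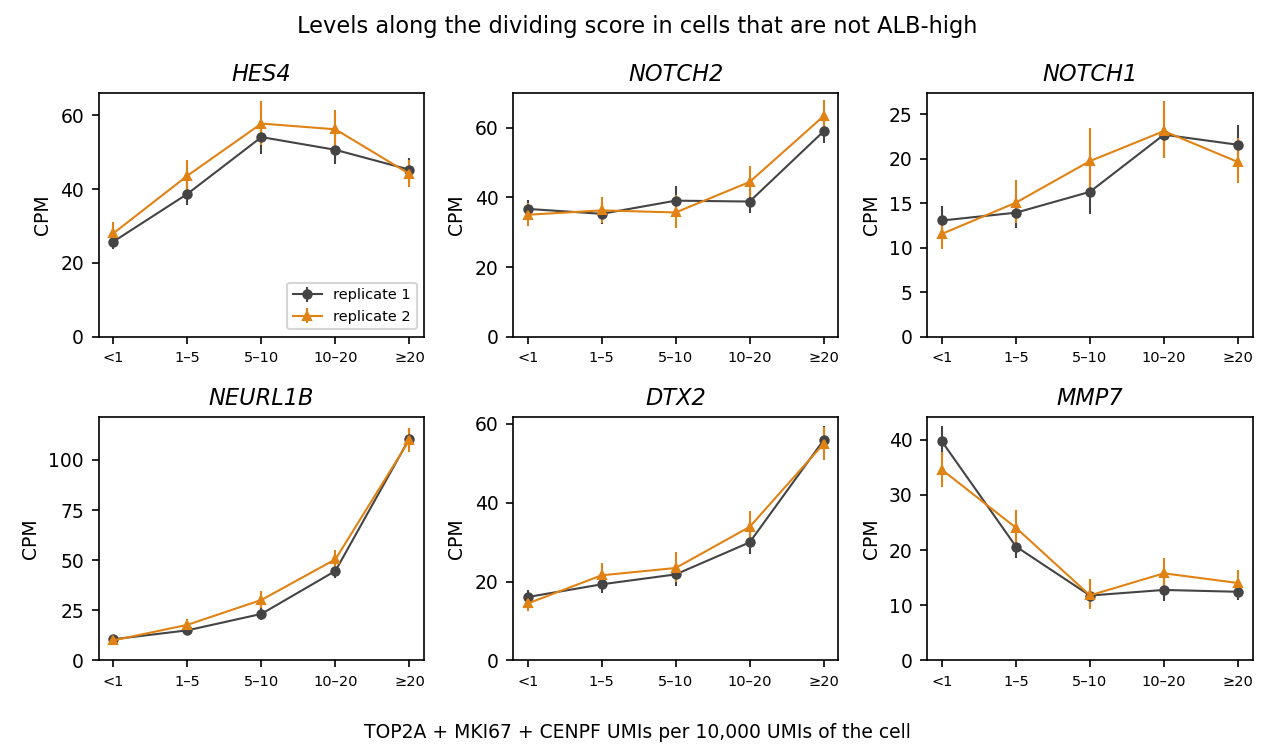
Level in CPM across bins of the summed TOP2A, MKI67 and CENPF UMIs per 10000 in cells that are not ALB-high, with 1 line per library and exact Poisson 95% intervals. HES4 is highest at 5 to 10 (54.1 and 57.7 CPM), NOTCH2 in the top bin (59.0 and 63.3 CPM), and MMP7 in the lowest bin (39.7 and 34.6 CPM).

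To compare shares of cells, each cell was thinned to 4000 UMIs, which left out 64 and 83 shallower cells. SOX9 then had a UMI in 10.2 and 7.39% of ALB-high cells, 1.85 and 2.39% of dividing cells, and 2.69 and 2.45% of remaining cells. Without thinning, the SOX9 shares were 31.9 and 23.5%, 10.5 and 6.72%, and 8.74 and 6.42%. SPP1 had a UMI in 16.8 and 15.3% of thinned ALB-high cells, 1.71 and 1.38% of dividing cells, and 3.02 and 3.37% of remaining cells. Without thinning, the SPP1 shares were 36.6 and 27.5%, 7.25 and 4.17%, and 8.11 and 6.28%.

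TF was taken beside these shares as a gene that hepatocytes make in quantity. It had a UMI in 65.2 and 61.1% of thinned ALB-high cells, in 1.71 and 2.07% of dividing cells and in 2.02 and 2.48% of remaining cells. The SPP1 share of remaining cells and the SOX9 share of dividing cells exceeded that of TF in both libraries. The SOX9 share of remaining cells exceeded it only in replicate 1, and the SPP1 share of dividing cells in neither. No difference is read from these low shares alone.

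HES1 had a UMI in 16.4 and 15.1% of thinned ALB-high cells, 8.61 and 8.99% of dividing cells, and 7.20 and 8.02% of remaining cells. Its unthinned shares were 51.4 and 40.1%, 33.6 and 23.2%, and 24.7 and 16.9%. The NOTCH2 share was 19.0 and 19.99% in thinned dividing cells, 13.5 and 12.1% in remaining cells and 9.38 and 11.6% in ALB-high cells. HES4 had a UMI in 15.1 and 18.2% of thinned dividing cells, 11.0 and 13.4% of remaining cells and 8.98 and 11.9% of ALB-high cells. NOTCH3 had a UMI in 0 of 256 and 0 of 352 thinned ALB-high cells, which allows shares of up to 1.17 and 0.852% by the limit of 3 counts and up to 1.43 and 1.04% by the exact binomial interval. Its share was 0.213 and 0.251% in dividing cells and 0.411 and 0.213% in remaining cells, under that of TF.

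SOX9, SPP1 and HES1 were the 3 genes with a higher share in ALB-high than in remaining cells of both libraries. In dividing cells 4 of the 10 genes had a higher share than in remaining cells of both libraries, and 7 did when all UMIs were kept, where dividing cells are deeper. A thinned cell showed on average 1.36 and 1.26 of the 10 genes in ALB-high cells, 1.25 and 1.32 in dividing cells, and 1.27 and 1.31 in remaining cells. The groups therefore differed in which of these genes were seen and little in how many.

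Co-detection of 2 genes in a cell was set against the number expected from their separate shares, for the 45 pairs and for pairs with at least 5 expected cells in both libraries. In remaining cells 34 pairs qualified, of which 9 were above expectation in both libraries, 16 below in both and 9 split, with median ratios of 0.98 and 0.94. Over the same 34 pairs, the number above was 24 when all UMIs were kept and 5 at 2000 UMIs per cell, so it moved with the depth used. These ratios are descriptions over cells of 2 libraries and were not tested.

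The ligand and receptor genes JAG1 and NOTCH2 were seen together in 36 and 38 remaining cells, where 26.4 and 23.6 were expected (ratios of 1.36 and 1.61). In dividing cells the same pair was at expectation, with ratios of 1.06 and 1.01. SPP1 and MMP7 were seen together in 15 and 12 remaining cells, where 6.65 and 7.52 were expected (2.26 and 1.60). These cells are few and the pair is the highest of the 34, so its ratio is not firmly placed either. SOX9 and HES1 shared 8 cells in each library, where 5.19 and 5.53 were expected, too few to place the ratio.

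MMP7 was seen less than expected with several Notch genes in remaining cells. With HES4 it shared 12 and 20 cells against 24.2 and 29.9 expected (ratios of 0.50 and 0.67), and with NOTCH2 18 and 17 against 29.6 and 26.9 (0.61 and 0.63). Remaining cells cover the dividing-score bins of under 1, 1 to 5 and 5 to 10. Over these, MMP7 was at 39.7, 20.7 and 11.8 CPM and HES4 at 25.8, 38.7 and 54.1 CPM in replicate 1, with the same directions in replicate 2. The part of that span in the ratios was not tested. SPP1 and HES1, which were both highest in ALB-high cells, shared 2 and 5 remaining cells against 5.84 and 7.62 expected. These cells are also too few to place the ratio, and in ALB-high cells the ratios of this pair were 0.71 and 1.35. Both SPP1 and MMP7 were also seen less than expected with KRT19 in remaining cells, with ratios of 0.82 and 0.68 for SPP1 and 0.78 and 0.85 for MMP7.

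In ALB-high cells 11 pairs qualified, 5 of them above expectation in both libraries, with median ratios of 1.04 and 1.11. CD24 shared cells there with SOX4 at ratios of 1.33 and 1.28 and with MMP7 at 1.68 and 1.40. In dividing cells 23 pairs qualified, with 6 above, 4 below and 13 split, and median ratios of 0.96 and 1.03. No pair in either group was above 1.5 in both libraries, and in remaining cells SPP1 with MMP7 was the 1 pair that was, on few cells.

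**Figure D5:**
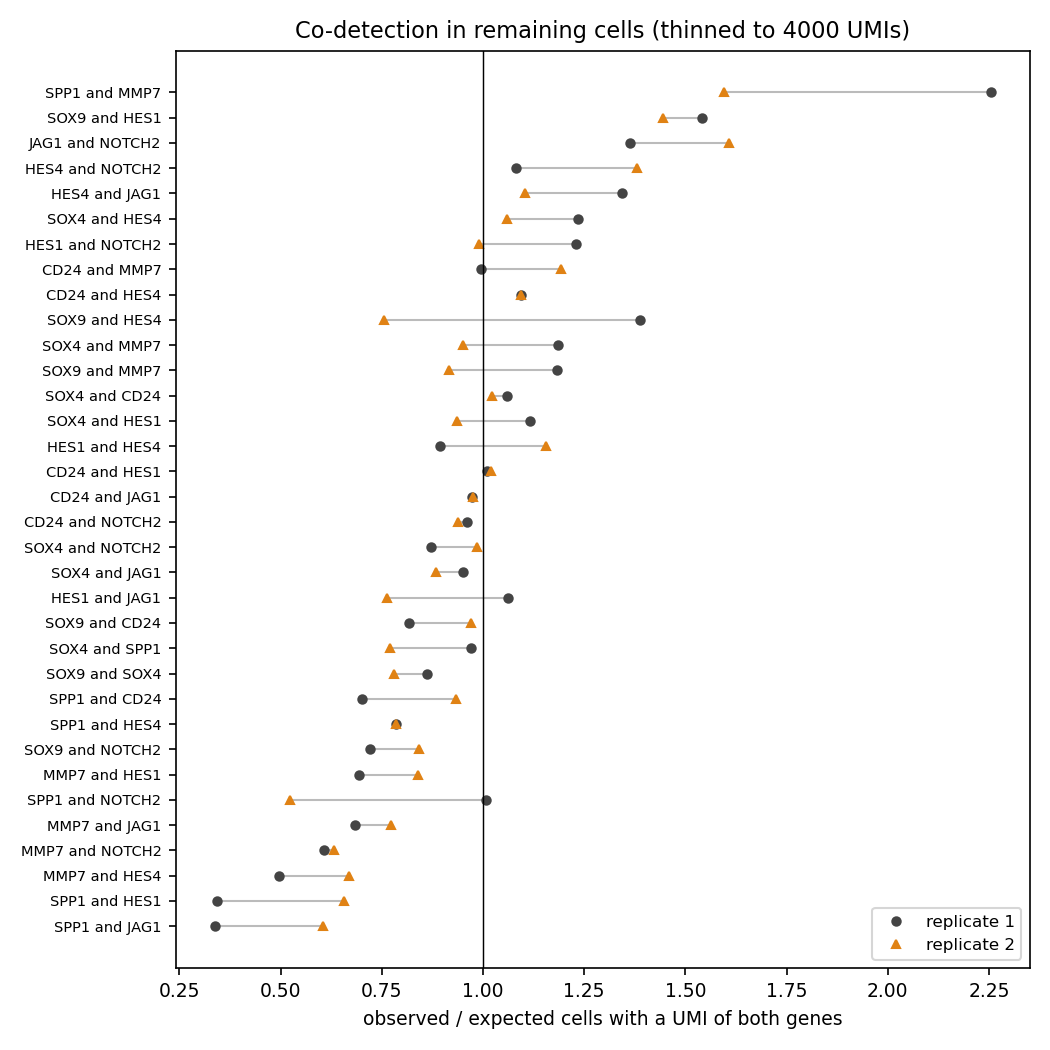
Ratio of observed to expected cells with a UMI of both genes in remaining cells thinned to 4000 UMIs, for the 34 pairs with at least 5 expected cells in both libraries and 1 point per library. SPP1 with MMP7 lies highest (2.26 and 1.60, on few cells), JAG1 with NOTCH2 at 1.36 and 1.61, and MMP7 with HES4 at 0.50 and 0.67.

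For the 7 genes with a UMI in at least 5% of thinned cells, the most similar genes were sought by Pearson r over 4390 and 4811 thinned cells, which share a library, a depth and the mixture of cell groups. All values were weak. HES4 was most like HIST1H4C (0.14 and 0.14 in replicates 1 and 2), a histone gene, and RRM2 (0.14 and 0.12) and CLSPN (0.12 and 0.12), which serve DNA replication. NOTCH2 was most like TOP2A (0.09 and 0.10), ANLN and ASPM, which act in mitosis. In remaining cells alone its r was -0.003 and -0.010 with TOP2A, 0.016 and 0.017 with ANLN, and 0.029 and 0.018 with ASPM. TOP2A is part of the rule for dividing cells, so its range among remaining cells is limited by that rule. MMP7 was most like DCN (0.16 and 0.17), a matrix proteoglycan gene, S100A8 (0.15 and 0.18) and ZNF385B (0.14 and 0.15), and in remaining cells alone r with DCN was 0.16 and 0.17.

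HES1 was most like the hepatocyte genes TF, ALB and APOH, with r between 0.06 and 0.08, and in remaining cells r was -0.005 and 0.001 with TF and 0.050 and 0.036 with ALB. CD24 was most like ACTB (0.13 and 0.14), DSTN and TENM2, and SOX4 like TPM1 (0.07 and 0.07), ACTB and CREB5. Lowering the floor to 2% of cells, chosen after the data had been seen, added SPP1, most like HP (0.22 and 0.22), ORM1 and GSTA1, and SOX9, most like ALB (0.12 and 0.12), FGB and GSTA1.

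Of the other genes of the pathway, 51 in number, 45 passed the filter. In ALB-high against remaining cells 8 of these rose and 14 fell, in dividing against remaining cells 15 rose and 8 fell, and in ALB-high against dividing cells 8 were higher and 18 lower. Over all genes tested, 23.9% were called higher and 24.2% lower in the first comparison, 24.8% and 23.9% in the second, and 27.3% and 29.2% in the third. The median log2 fold changes of the 45 genes were -0.07, 0.08 and -0.21. Among ligand genes, DLL3 was at 10.8 and 11.6 CPM in remaining cells and fell in ALB-high cells by 1.17 (SE 0.21, edgeR adjusted p = 7.0e-05). JAG2 and DLL1 did not exceed 4.31 CPM and DLL4 did not exceed 0.0477 CPM in any group.

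Among receptor genes, NOTCH1 had the same order of the groups as NOTCH2. It was at 22.0 and 21.1 CPM in dividing cells, 14.0 and 14.6 CPM in remaining cells and 10.5 and 11.5 CPM in ALB-high cells. It rose in dividing cells by 0.65 ± 0.07 on the log2 scale (edgeR adjusted p = 6.3e-08). Along the bins of the dividing score the courses differed. NOTCH1 was at 22.7 and 23.1 CPM at 10 to 20 and at 21.6 and 19.7 CPM in the top bin, with overlapping intervals, while NOTCH2 was highest in the top bin. NOTCH4 did not exceed 0.477 CPM.

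NEURL1B, which encodes an E3 ubiquitin ligase of the Neuralized family that drives ligand endocytosis, showed the largest fold of these genes in dividing cells. It was at 84.5 and 84.8 CPM in dividing cells, 14.6 and 17.0 CPM in remaining cells, and 12.2 and 14.1 CPM in ALB-high cells, and rose in dividing cells by 2.48 ± 0.05 (edgeR adjusted p = 2.4e-19). DTX2, a Deltex gene, was at 45.6 and 46.0 CPM in dividing cells against 18.3 and 18.8 CPM in remaining cells, a rise of 1.34 ± 0.05 (edgeR adjusted p = 1.8e-14). The other ligand endocytosis genes, MIB1, MIB2 and NEURL1, did not pass the test in dividing cells.

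Among the 13 tested genes of receptor maturation and cleavage, 1 rose and 5 fell in ALB-high cells, and 4 rose and 2 fell in dividing cells, beside 48.1% and 48.7% of all genes called in either direction. POGLUT1, which adds glucose to the receptor, had the largest of these falls in ALB-high cells, at 13.4 and 12.7 CPM against 23.5 and 24.9 CPM (log2 fold change -0.74 ± 0.12, edgeR adjusted p = 1.7e-05). APH1A, a γ-secretase subunit gene, rose in dividing cells by 0.28 ± 0.04 (edgeR adjusted p = 1.7e-05).

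The Mastermind genes differed among themselves. MAML3 was at 156 and 133 CPM in ALB-high cells, 65.9 and 64.8 CPM in remaining cells and 35.5 and 38.1 CPM in dividing cells. It rose in ALB-high cells by 1.30 ± 0.06 (edgeR adjusted p = 1.4e-13) and fell in dividing cells by 0.80 on the log2 scale. MAML2 was at 296 and 282 CPM in remaining cells and fell in both other groups, by 0.60 in ALB-high cells and by 0.38 in dividing cells. RBPJ, the DNA-binding partner, was at 63.8 and 74.3 CPM in ALB-high cells against 94.4 and 87.9 CPM in remaining cells and fell by 0.27 (SE 0.07, edgeR adjusted p = 0.0021). All 11 genes of this nuclear list were tested, of which 3 rose and 4 fell in ALB-high cells (23.9% and 24.2% over all genes). In dividing cells 6 of the 11 rose and 2 fell (24.8% and 23.9% over all genes).

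The other target genes gave little signal. HES5 and NRARP held 0 UMIs in ALB-high, dividing and remaining cells, and HEY1, HEY2 and HEYL did not exceed 1.03 CPM. HES6 was at 7.76 and 10.0 CPM in ALB-high cells and 12.3 and 13.0 CPM in remaining cells and fell by 0.38 (SE 0.15, edgeR adjusted p = 0.0412). Of 7 inhibitor genes tested, NUMB, whose product antagonises the receptor, rose in ALB-high cells by 0.62 ± 0.06 (edgeR adjusted p = 1.2e-08), and its relative NUMBL fell by 1.07 (SE 0.13, adjusted p = 7.0e-07). In all, 3 of the 7 rose and 2 fell in ALB-high cells (23.9% and 24.2% over all genes).

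Of 21 biliary genes, 14 were tested, and 8 rose and 5 fell in ALB-high cells (23.9% and 24.2% over all genes). Beside SOX9 and SPP1, PKHD1, the gene of the cilium protein fibrocystin, was at 14.1 and 11.7 CPM in ALB-high cells against 2.33 and 2.14 CPM in remaining cells (log2 fold change 2.67 ± 0.19, edgeR adjusted p = 1.7e-10). ANXA4, an annexin gene, rose by 0.64 ± 0.04. KRT19 went the other way, at 227 and 258 CPM in ALB-high cells, a fall by 1.51 (SE 0.04, edgeR adjusted p = 3.2e-18). In dividing cells 1 of the 14 rose and 8 fell (24.8% and 23.9% over all genes), and KRT19 fell there by 0.58.

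Of 16 progenitor genes, 13 were tested, and 5 rose and 6 fell in ALB-high cells (23.9% and 24.2% over all genes). In dividing cells 3 of the 13 rose and 3 fell (24.8% and 23.9% over all genes). ONECUT1, a transcription factor gene of hepatoblasts and hepatocytes, was at 56.7 and 51.8 CPM in ALB-high cells against 0.705 and 1.09 CPM in remaining cells (log2 fold change 6.12 ± 0.15, edgeR adjusted p = 2.7e-18). TNFRSF12A, the receptor gene for the TWEAK signal of the liver's ductular reaction, fell in ALB-high cells by 0.93 and rose in dividing cells by 0.38 on the log2 scale. NCAM1 fell in ALB-high cells by 1.41 and rose in dividing cells by 0.56. AFP, the fetal hepatocyte marker, was at 4.14 and 5.93 CPM in ALB-high cells and did not pass the test there.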

How the data were processed

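The authors deposited raw UMI counts for every gene in every barcode, written by Cell Ranger 7.0.0, per the file headers. STAR and GRCh38 are named in the submitters' processing notes. For the annotation release, strand setting and intron handling, the entry is: not given in the sources used here. The 12 antibody features held 0 UMIs and were not used. Barcodes numbered 4591 and 4998, with 85475317 and 57246647 UMIs, and 10 barcodes occurred in both libraries.

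Cells were dropped below 500 genes or 1000 UMIs or above 25% mitochondrial UMIs, which left 4454 and 4894. Scrublet marked 3 and 0 of these and was not used as a filter. Free RNA was not removed. Counts were summed per library and cell group, which gave 6 sums, and scaled to CPM. The edgeR 4.0.16 quasi-likelihood test (R 4.3.3) used TMM scaling, filterByExpr, the library as a block and Benjamini-Hochberg adjustment over 19147 genes, with a threshold of 0.05. The block stands because the groups of a library come from the same preparation. The 2 residual degrees of freedom come from groups within 2 libraries. SEs were derived from the fold change and its F value. In simulated data for ALB-high against remaining cells, edgeR recovered 47 of 50 genes changed 1.5-fold and 49 of 50 changed 2-fold, with 4 false calls among 19147 genes. In the measured data 48.1% of genes were called in this comparison, and recovery and false calls there were not tested. DESeq2 1.42.0 was an alternative. Shares carry exact Clopper-Pearson 95% intervals and levels exact Poisson intervals, which cover counting error only.

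The 10 genes and all lists were chosen with earlier results of these data known. All 10 were named. Other list genes could be named at 10 CPM or more in any group of both libraries, and those below that were chosen after their values were seen. The 3 most similar genes were those with the highest smaller r of the 2 libraries, for genes seen in at least 5% of thinned cells. Positions are from GENCODE 29. The genes most similar to JAG1, and the level of 1 biliary marker, are not reported here.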

Additional observations from a re-analysis of the deposited data

How the results depend on the processing

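Of 387 values of single genes under alternative settings, 362 kept their side of the threshold. Another 20 kept their direction but were no longer called, 3 became called, and 2 changed sign with a call in at least 1 of the settings compared. Where neither setting was called, a change of sign was not counted. The 2 counted sign changes were CD24 in ALB-high against dividing cells with an ALB limit of 25 (0.14, edgeR adjusted p = 0.0089, from -0.03) and MMP7 in the same comparison with a limit of 100 (-0.054, from 0.35). SOX9, SPP1 and HES1 stayed called higher in ALB-high than in remaining cells under every alternative with a test. With cells thinned to 4000 UMIs, which removes most counts, ALB-high against remaining cells gave 2818 genes higher and 2702 lower (4575 and 4628 with all counts) and 1 of the 10 genes lower in place of 4. The same thinning gave 2955 genes lower in dividing against remaining cells (4575 with all counts), and 3434 higher and 3628 lower in ALB-high against dividing cells (5233 and 5596), with 2 of the 10 genes lower in place of 4. DESeq2 gave 2296 genes higher and 2119 lower in dividing against remaining cells (4755 and 4575 with edgeR), and 2 of the 10 genes lower in ALB-high against dividing cells in place of 4; the cause was not tested. Without the replicate block, 4528 genes were higher and 4576 lower in ALB-high against remaining cells, and the counts among the 10 genes were 3 and 4, as with it. Single calls of the 10 genes also changed under other settings, as given above for SOX4, HES1 and JAG1. With a single library, which allows no test, 9191 to 9203 of the 9203 genes called in ALB-high against remaining cells kept their direction. These genes were called from the same 2 libraries, so such agreement was largely fixed in advance and is no separate support. The genes with a higher share of cells in dividing than in remaining cells were 7 with all UMIs and 4 when thinned, and pairs above expectation in remaining cells were 24 with all UMIs, 5 at 2000 UMIs and 9 in the main setting. Of 21 most similar genes, 9 were among the top 3 in remaining cells alone.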
